A study of Mus musculus with 12 samples.

Results

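CTLL-2 cells, a cytotoxic T cell line from C57BL/6 mice that needs interleukin 2 (IL-2) to grow, were profiled here after IL-2 had been withdrawn. The profile is that of the 4 arrays labelled cycloheximide for 30 min, of 12 arrays in the whole series, and every array carrying that label was used. Cells kept in medium with 50 U/mL human recombinant IL-2 were washed and held without it for 14 h. Cycloheximide, an inhibitor of protein synthesis, was then added at 20 µg/mL (the prefix of this unit is garbled in the labels and was read as micro) for a further 30 min, so the values are those of starved cells plus that short exposure. The other arrays of the series, 4 with cycloheximide for 4.5 h and 4 given 100 U/mL IL-2 for 4 h after the same 30 min, enter no comparison below, and cells that, in the series' description, received no cycloheximide were not analysed here. Biotinylated cRNA made from total RNA was hybridised to Affymetrix Mouse Genome 430 2.0 arrays, on which a probe set is a group of short oligonucleotides for 1 transcript. All 4 arrays are from a single cell line, and the labels do not say whether the replicates were separate cultures, so their spread may be technical.

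Cytotoxic T cells kill by releasing granules that hold perforin, which opens membranes, and granzymes, serine proteases that then enter the target cell. They see their target through the T cell receptor and its CD3 chains, with CD8 as the co-receptor. IL-2 binds a receptor of alpha, beta and common gamma chains, whose kinases JAK1 and JAK3 activate the factor STAT5 and with it growth and survival genes.

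The unit throughout is the authors' linear signal intensity, scaled so that the trimmed mean of each array is 500. Of 18193 genes represented by a probe set with a single symbol, each by its brightest, the median mean signal over the 4 arrays was 123. A floor was set on each array at the 95th percentile of 83 probe sets for 74 olfactory, vomeronasal and taste receptor genes, which stood at 71.4, 94.3, 74.4 and 70.0 in replicates 1 to 4. Above the floor on all 4 arrays were 9112 genes (50.1%), and 5776 (31.7%) were below it on all 4, with 3305 mixed. Among genes above on all 4 the lowest mean was 81.6, and among genes below on all 4 the highest was 71.2. Signal depends on the probes as well as on the transcript, so a rank below is a rank of signals and not of transcript numbers, and a signal below the floor does not show that a transcript is absent. Genes with 2 or more probe sets were above the floor in 64.3% of cases, against 36.2% of genes with 1. The shares of the lists below are set beside that of all genes and were not matched for the number of probe sets. Of 5789 genes above the floor with several probe sets, 1924 (33.2%) had another probe set below the floor on every array.

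The T cell markers were all bright. The signals of Gzmb, a granule protease, were 41937, 73573, 56372 and 38679 in replicates 1 to 4 (mean 52640 ± 15933, SD, n = 4). Prf1, perforin, gave 35574, 51299, 40422 and 32318 in replicates 1 to 4, a mean of 39903 ± 8295 (SD, n = 4). Both were highest in replicate 2 and lowest in replicate 4. For Ptprc, the leukocyte phosphatase CD45, replicates 1 to 4 read 24429, 25631, 22817 and 18331 (mean 22802 ± 3196, SD, n = 4). Cd3e, a chain of the CD3 complex, stood at 9278, 12027, 4854 and 6377 in replicates 1 to 4 (mean 8134 ± 3179, SD, n = 4). All 4 were among the 1000 highest genes, and Gzmb and Prf1 among the 100 highest. Ptprc and Cd3e were highest in replicate 2 as well, and replicate 3 was the lowest array for Cd3e.

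**Figure D1:**
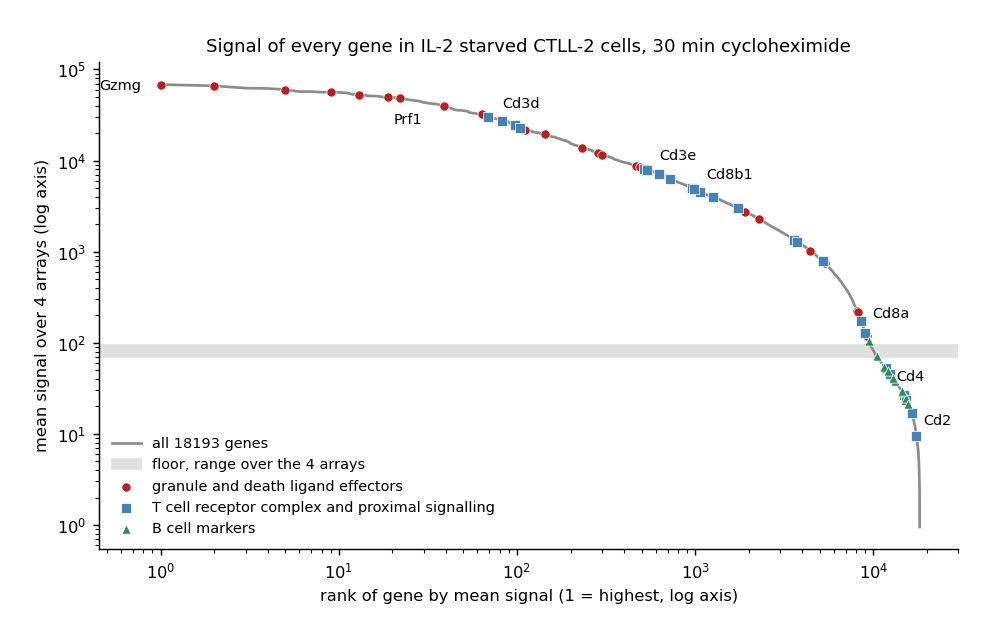
Mean signal over the 4 arrays of every gene against its rank, both on log axes. Circles are granule genes, squares the list of the T cell receptor complex and its proximal signalling, and triangles B cell markers. The grey line is all 18193 genes and the grey band the floor, between 70.0 and 94.3. Most granule genes lie at the bright end, with Gzmm, Tnfsf10 and Serpinb9b near or below the floor, and the B cell markers lie near or below it.

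Among genes with a single-symbol probe set, the brightest in the starved cells were mostly those of granzymes, ribosomal proteins and the cytoskeleton. Of the 100 brightest probe sets, 42 carry several symbols and 9 none, and these are outside the ranking. Of the 25 highest genes 7 encoded granzymes and 11 ribosomal proteins. Gzmg, granzyme G, had signals of 54197, 103050, 67749 and 47919 in replicates 1 to 4, with a mean of 68229 ± 24645 (SD, n = 4). It was the highest of the genes with a single-symbol probe set on every array, while a probe set without a single symbol was higher on replicates 1, 3 and 4. The signals of Gzma, a tryptase of the granules, were 53729, 96046, 67735 and 46461 in replicates 1 to 4 (mean 65993 ± 21895, SD, n = 4). It ranked between 2 and 3 on the arrays. Lgals1, galectin 1, a secreted sugar-binding protein, gave 54001, 92600, 58695 and 43905 in replicates 1 to 4, a mean of 62300 ± 21121 (SD, n = 4). For Tmsb4x, thymosin beta 4, which binds actin monomers, replicates 1 to 4 read 51302, 78850, 54472 and 43543 (mean 57042 ± 15247, SD, n = 4). Eef1a1, the elongation factor that brings aminoacyl tRNA to the ribosome, stood at 44742, 77670, 53955 and 36240 in replicates 1 to 4 (mean 53152 ± 17875, SD, n = 4). Replicate 2 was the highest array for 25 of these 25 genes and replicate 4 the lowest for 24, and the signal of the brightest probe set on an array ranged from 48982 to 103050. The order was steadier than the level, since 81 genes were in the 100 highest on all 4 arrays and 117 on any. For 9 of the 25 and 27 of the 100 the probe set was of a kind that can match several transcripts, by its suffix. The 9 were those of Rpl38, Rpl41, Rps29, Actg1, Tmsb10, Rpl35, Gzme, Rpl13a and Rps24. The values of Mt1, Aldoa and H2-K1, given further on, also rest on such probe sets. The 100 highest genes comprised 34 ribosomal protein genes, 10 granule effectors, 6 translation factors and 5 genes of the cytoskeleton. The list of the T cell receptor complex and its proximal signalling gave 3 (Cd3d, Thy1 and Cd3g), as did glycolysis and antigen presentation. The rest were 1 adaptor of NK cell receptors and 35 genes in none of the lists.

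Granule and death ligand genes were above the floor in 24 of 27 cases (88.9%), against 50.1% of all genes. The list was chosen with these values known, so the counts describe it only. Beside Gzmg and Gzma, the granzymes Gzmf, Gzmd, Gzmc and Gzme averaged 60160 ± 18503, 56185 ± 18937, 49285 ± 16184 and 48463 ± 12792 (SD, n = 4 each). Gzmk, a tryptase related to Gzma, had signals of 27935, 39599, 27571 and 24628 in replicates 1 to 4, with a mean of 29933 ± 6612 (SD, n = 4). The signals of Srgn, the proteoglycan serglycin on which granule proteases are packed, were 27683, 37162, 33605 and 29520 in replicates 1 to 4 (mean 31992 ± 4243, SD, n = 4). Both were highest in replicate 2. Ctsc, the enzyme cathepsin C that removes the propeptide of granzymes, gave 10791, 11220, 13109 and 13498 in replicates 1 to 4, a mean of 12154 ± 1348 (SD, n = 4). For Fasl, Fas ligand, replicates 1 to 4 read 12888, 11964, 10133 and 11224 (mean 11552 ± 1165, SD, n = 4). Ctsc was higher in replicates 3 and 4 than in 1 and 2, and Fasl was lowest in replicate 3. The release machinery was also above the floor, with mean signals of 2981 ± 193 for Rab27a, 2750 ± 575 for Unc13d, 2287 ± 354 for Stxbp2 and 1023 ± 152 for Stx11 (SD, n = 4 each). Outside the calls were Gzmm, above on 3 arrays, Tnfsf10, the death ligand TRAIL, above on 1, and Serpinb9b, above on none. The granzyme inhibitor Serpinb9 averaged 225 ± 92.3 (SD, n = 4).

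The granzyme genes other than Gzma, Gzmk and Gzmm lie side by side on chromosome 14, and promoter sequence is shown here because some members of the cluster are nearly alike in it and others are not. The promoters of Gzmb, Gzmg and Gzmd are set beside those of Tmsb4x and Eef1a1, bright genes outside the granules. Each run is 270 bases, from 250 before the start site to 20 after it, 5′ to 3′ on the strand of the gene, from RefSeq on GRCm38.p6, with every CG in capitals. The positions are chr14:56262315-56262584 (minus strand) for Gzmb, chr14:56159560-56159829 (minus) for Gzmg, chr14:56132574-56132843 (minus) for Gzmd, chrX:167209199-167209468 (minus) for Tmsb4x and chr9:78481705-78481974 (minus) for Eef1a1.
Gzmb: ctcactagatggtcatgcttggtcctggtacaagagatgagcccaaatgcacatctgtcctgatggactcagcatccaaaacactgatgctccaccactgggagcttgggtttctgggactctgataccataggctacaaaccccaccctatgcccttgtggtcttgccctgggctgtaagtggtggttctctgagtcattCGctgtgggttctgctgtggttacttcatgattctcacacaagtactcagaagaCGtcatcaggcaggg
Gzmg: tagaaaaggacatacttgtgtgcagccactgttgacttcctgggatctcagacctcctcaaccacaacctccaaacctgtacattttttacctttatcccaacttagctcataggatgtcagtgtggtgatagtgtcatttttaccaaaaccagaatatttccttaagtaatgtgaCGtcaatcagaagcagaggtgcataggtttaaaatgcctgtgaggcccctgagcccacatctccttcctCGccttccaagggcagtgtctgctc
Gzmd: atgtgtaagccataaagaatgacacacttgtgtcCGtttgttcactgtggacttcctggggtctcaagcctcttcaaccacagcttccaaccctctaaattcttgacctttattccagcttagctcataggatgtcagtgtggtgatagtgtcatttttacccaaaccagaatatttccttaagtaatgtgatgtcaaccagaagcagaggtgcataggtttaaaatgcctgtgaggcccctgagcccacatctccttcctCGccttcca
Tmsb4x: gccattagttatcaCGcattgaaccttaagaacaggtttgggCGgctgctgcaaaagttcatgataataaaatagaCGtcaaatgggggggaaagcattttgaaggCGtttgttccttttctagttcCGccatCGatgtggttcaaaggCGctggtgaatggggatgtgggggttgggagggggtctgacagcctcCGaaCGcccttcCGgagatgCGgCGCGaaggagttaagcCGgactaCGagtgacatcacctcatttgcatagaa
Eef1a1: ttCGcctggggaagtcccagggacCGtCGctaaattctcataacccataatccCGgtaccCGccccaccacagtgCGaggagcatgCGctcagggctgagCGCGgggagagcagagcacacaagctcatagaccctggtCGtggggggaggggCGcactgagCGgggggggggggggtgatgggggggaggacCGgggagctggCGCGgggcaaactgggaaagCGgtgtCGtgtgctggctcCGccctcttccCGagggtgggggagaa
The 3 granzyme promoters hold 2 CG each in these bases, and those of Tmsb4x and Eef1a1 hold 15 and 19. Gzmd and Gzmg share a run of 71 identical bases, while the longest run that either shares with Gzmb is 8 bases. Pairs of promoters were aligned over 300 bases with gaps allowed, and identical bases were taken as a percentage of 300. Gzmd and Gzme gave 93.7%, Gzmf and Gzmg 86.0%, and Gzmd and Gzmg 85.3%. Gzmb and Gzmc gave 44.0%, near the 43.0% of Gzma and Prf1, which lie outside the cluster. These bases lie mostly before the transcript. How far the transcripts of Gzmc, Gzmd, Gzme, Gzmf and Gzmg hybridise to each other's probe sets was not tested, so their separate signals are uncertain.

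The order of genes on chromosome 14, from the RefSeq annotation of GRCm38.p6, puts 15 protein-coding genes from Cma1 to Gzmb, and 13 had a named probe set. Of these 10 were above the floor on all 4 arrays and 3 on none, against 50.1% and 31.7% of all genes. The bright granzymes had dim neighbours within the same run of genes. Mcpt1, Mcpt2 and Mcpt4, which encode mast cell proteases, averaged 16.7, 24.7 and 17.0. Other members of the run that are known from mast cells, basophils and neutrophils were above the floor. Cma1, mast cell chymase, stood at 4491, 3926, 3344 and 3510 in replicates 1 to 4 (mean 3818 ± 511, SD, n = 4). Mcpt8, a protease known from basophils, had signals of 2278, 1897, 2376 and 2659 in replicates 1 to 4, with a mean of 2302 ± 315 (SD, n = 4). The signals of Ctsg, cathepsin G of neutrophil granules, were 1591, 1563, 3805 and 3547 in replicates 1 to 4 (mean 2627 ± 1217, SD, n = 4). For Ctsg both replicates 3 and 4 were above both 1 and 2. Gzmn, within the granzyme cluster, averaged 753 ± 191 (SD, n = 4).

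The list of the T cell receptor complex and its proximal signalling was above the floor in 17 of 24 cases (70.8%), against 50.1% of all genes. Of the complex itself it measured Cd3e, Cd3d, Cd3g and Cd247. The other members were co-receptors, kinases, adaptors and surface genes of T cells, and no receptor alpha or beta chain was measured. Cd3d, a CD3 chain, gave 26372, 34640, 32449 and 27072 in replicates 1 to 4, a mean of 30133 ± 4049 (SD, n = 4). For Cd3g, another CD3 chain, replicates 1 to 4 read 24352, 29937, 19497 and 25327 (mean 24778 ± 4281, SD, n = 4). Cd247, the zeta chain, stood at 5069, 5775, 3339 and 3927 in replicates 1 to 4 (mean 4527 ± 1099, SD, n = 4). Each of these 3 chains was above the floor on every array. Thy1, a surface glycoprotein of mouse T cells, had signals of 22210, 29993, 33084 and 24475 in replicates 1 to 4, with a mean of 27441 ± 4984 (SD, n = 4). Cd247 and Cd3e were higher in replicates 1 and 2 than in 3 and 4, Thy1 was highest in replicate 3, and Cd3d and Cd3g were highest in replicate 2. Kinases and adaptors behind the receptor ranged widely, with mean signals of 7960 ± 474 for the adaptor Lat, 4855 ± 465 for the kinase Zap70, 6328 ± 277 for the kinase Fyn and 7140 ± 999 for Rasgrp1, which activates Ras (SD, n = 4 each). The exchange factor Vav1, the kinase Prkcq and the adaptor Lcp2 averaged 1349 ± 175, 1281 ± 401 and 783 ± 183 (SD, n = 4 each), and Plcg1, a phospholipase, averaged 45.7 and was above the floor on 1 array. The co-receptor signals were 4095, 3870, 6233 and 5818 for Cd8b1, the CD8 beta chain, on replicates 1 to 4, and 102, 208, 82.9 and 121 for Cd8a, the alpha chain. Both genes were above the floor on each array, and Cd8a was highest in replicate 2. The other probe sets of Cd8a averaged between 8.55 and 128. Other surface genes of T cells were dim. Cd4, Cd5, Cd6 and Cd2 averaged 26.7, 23.6, 17.0 and 9.55, and each was below the floor on all 4 arrays, as was Skap1. Cd7 was above on replicates 1 and 2 and not on 3 and 4, with signals of 334, 306, 17.1 and 33.6. Lck had no probe set with a single symbol and was not analysed here.

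**Figure D2:**
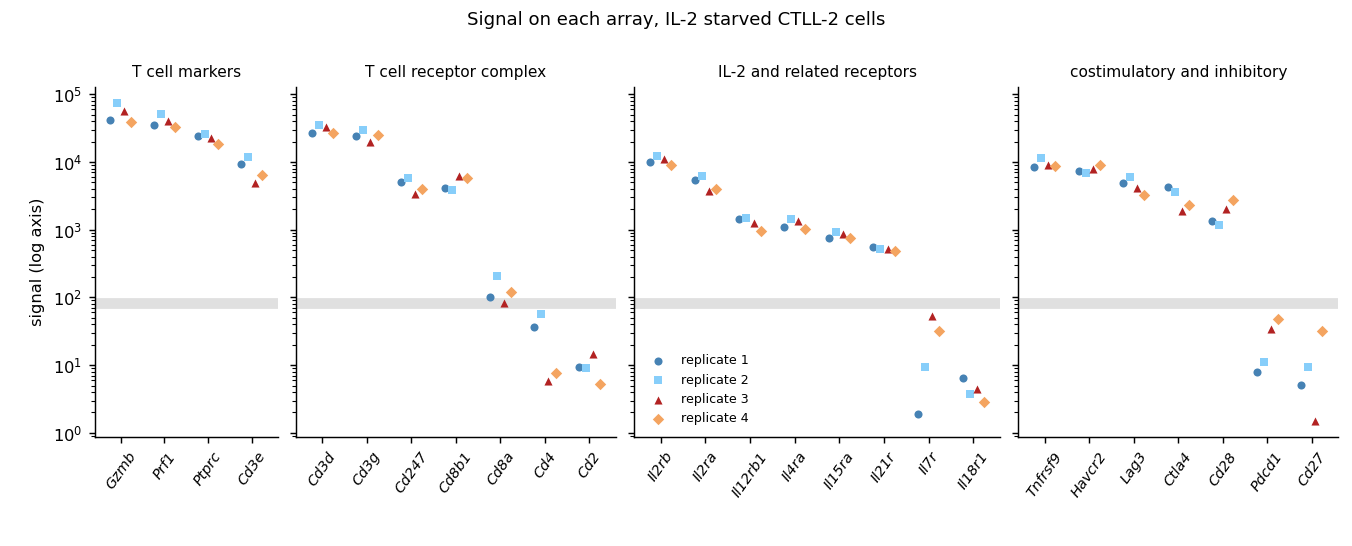
Signal of selected receptor and effector genes on each of the 4 arrays, on a log axis, with replicates as separate symbols and the grey band as the range of the floor. The CD3 chains, Il2rb and Il2ra lie far above the band on every array, Cd8a lies at its edge, and Cd4, Cd2, Il7r, Il18r1, Pdcd1 and Cd27 lie below it.

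Among costimulatory and inhibitory receptors 12 of 22 (54.5%) were above the floor, near the 50.1% of all genes, and 6 below it on every array. The signals of Cd244a, the receptor 2B4 of NK and CD8 T cells, were 9097, 8836, 13053 and 12622 in replicates 1 to 4 (mean 10902 ± 2244, SD, n = 4). Tnfrsf9, the costimulatory receptor 4-1BB, gave 8401, 11557, 9144 and 8565 in replicates 1 to 4, a mean of 9417 ± 1462 (SD, n = 4). For Havcr2, the inhibitory receptor TIM-3, replicates 1 to 4 read 7228, 6876, 7994 and 9128 (mean 7807 ± 997, SD, n = 4). Cd244a was higher in replicates 3 and 4 than in 1 and 2, and Tnfrsf9 was highest in replicate 2. Inhibitory Lag3 and Ctla4 averaged 4557 ± 1171 and 3022 ± 1123, and Cd28, the main costimulatory receptor of T cells, averaged 1803 ± 693 (SD, n = 4 each). Pdcd1, the inhibitory receptor PD-1, and Cd27, a costimulatory TNF receptor, averaged 25.2 and 11.9. Cd40lg, Cd226, Tnfrsf14 and Slamf1 were also below the floor throughout. Cd44, an adhesion receptor of activated T cells, averaged 52.0 on its brightest of 4 probe sets and was above the floor on 1 array. Surface genes picked by their names and held in no list included Cd52, Cd55, Cd47 and Cd53, at 24970 ± 1506, 22658 ± 2653, 19727 ± 3171 and 18801 ± 4385, and Cd48 and Cd37, at 9787 ± 568 and 9514 ± 1537 (SD, n = 4 each). Cd164 averaged 6195 ± 1363 (SD, n = 4). The remaining 8 names so picked (Cdk2ap1, Cdc42, Cdc37, Cdipt, Cdk9, Ilk, Cdv3 and Cdkn2d) are not those of receptors.

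The IL-2 receptor and its signalling genes were above the floor almost without exception, in 33 of 34 cases (97.1%), against 50.1% of all genes. Il2rb, the beta chain, stood at 10083, 12394, 10995 and 9048 in replicates 1 to 4 (mean 10630 ± 1419, SD, n = 4). Il2ra, the alpha chain, had signals of 5442, 6157, 3721 and 3972 in replicates 1 to 4, with a mean of 4823 ± 1169 (SD, n = 4). Il2rb was highest in replicate 2, and Il2ra was higher in replicates 1 and 2 than in 3 and 4. The signals of Jak1, the kinase bound to the beta chain, were 11878, 13757, 14626 and 14251 in replicates 1 to 4 (mean 13628 ± 1219, SD, n = 4). Jak3, the kinase bound to the common gamma chain, gave 2047, 2183, 3003 and 2109 in replicates 1 to 4, a mean of 2336 ± 448 (SD, n = 4). Replicate 3 was the highest array for both kinases. The gamma chain gene Il2rg was not analysed here. STAT5 was present as both genes, Stat5a at 3513 ± 817 and Stat5b at 2944 ± 905 (SD, n = 4 each). Of the feedback inhibitors Socs2 averaged 5589 ± 465, Socs3 1518 ± 276, Cish 843 ± 83.6 and Socs1 241 ± 50.1 (SD, n = 4 each). Survival genes were measured on both sides, with Mcl1 at 6593 ± 647 and Bcl2 at 2141 ± 670, which protect cells, and Bcl2l11 at 6496 ± 1925 and Bbc3 at 935 ± 217, which promote apoptosis (SD, n = 4 each). The D cyclins Ccnd2 and Ccnd3 averaged 11801 ± 886 and 3780 ± 728, and the survival kinases Pim3, Pim1 and Pim2 averaged 2006 ± 323, 854 ± 208 and 169 ± 38.0 (SD, n = 4 each). Syk, a kinase of B and NK cell receptors, was the single gene of the list below the floor, at 51.4.

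Other cytokine receptors were mixed. Counting the IL-2 chains, 21 of 35 (60.0%) were above the floor on all arrays, against 50.1% of all genes, and 9 were below on all. Kit, the stem cell factor receptor, averaged 3136 ± 806, Tgfbr2 3117 ± 484, Il17ra 2761 ± 565 and Ifngr1 2612 ± 976 (SD, n = 4 each). Receptors for cytokines of the same family as IL-2 gave smaller signals, with Il4ra at 1230 ± 194, Il15ra at 826 ± 92.1 and Il21r at 519 ± 27.1. For Il12rb2, a chain of the IL-12 receptor, replicates 1 to 4 read 1084, 1069, 395 and 393 (mean 735 ± 394, SD, n = 4). Il1r2, a decoy receptor for IL-1, stood at 825, 1166, 273 and 325 in replicates 1 to 4 (mean 647 ± 426, SD, n = 4). Both of these were higher in replicates 1 and 2 than in 3 and 4. Il7r, the IL-7 receptor of resting T cells, averaged 24.0, Il18r1 4.42, Ifnar2 11.6 and Ifngr2 36.3, all below the floor on every array. The death receptor gene Fas was above it on 1 array, at a mean of 33.8.

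Homing and lipid receptors were above the floor in 14 of 31 cases (45.2%), near the 50.1% of all genes, and below in 12. Selplg, the selectin ligand PSGL-1, had signals of 16735, 21520, 16357 and 13096 in replicates 1 to 4, with a mean of 16927 ± 3470 (SD, n = 4). It was highest in replicate 2. The integrin chains Itgb2 and Itgal, which form LFA-1, averaged 5477 ± 904 and 5266 ± 699, and Itgb1 2603 ± 959 (SD, n = 4 each). Receptors for lipid mediators included Ptger4 at 4001 ± 550, S1pr4 at 3900 ± 1005 and Ltb4r1 at 2636 ± 354, whereas S1pr1, the receptor used in leaving lymph nodes, averaged 62.8 and was above the floor on 1 array. Of chemokine receptors Cxcr3 averaged 978 ± 438 and Ccr4 305 ± 40.1 (SD, n = 4 each). Cxcr4 was above the floor on 3 arrays, and Ccr7 averaged 44.4. Ccr1, Ccr2, Ccr3, Ccr8, Ccr9, Ccr10, Cxcr2, Cxcr5, Cxcr6 and Xcr1 were below the floor on all arrays.

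Adaptors of NK cell receptors were bright, while most of the receptors themselves were dim. Of 16 genes 7 (43.8%) were above the floor, near the 50.1% of all genes, and 8 below. The signals of Fcer1g, the gamma chain of Fc receptors, were 26269, 32965, 24949 and 22068 in replicates 1 to 4 (mean 26563 ± 4615, SD, n = 4). Tyrobp, the adaptor DAP12, gave 5648, 4901, 6810 and 5846 in replicates 1 to 4, a mean of 5801 ± 786 (SD, n = 4). For Fcgr3, the Fc receptor CD16, replicates 1 to 4 read 9791, 10235, 7570 and 7363 (mean 8740 ± 1484, SD, n = 4). Hcst, the adaptor DAP10, averaged 2719 ± 414 (SD, n = 4). Fcer1g was among the 100 highest genes and highest in replicate 2, Fcgr3 was higher in replicates 1 and 2 than in 3 and 4, and Tyrobp was highest in replicate 3. Klrg1 averaged 392 ± 93.0 (SD, n = 4), and Klrd1, Klrk1, Klre1, Klrc1, Klrc2, Klra1, Klra7 and Klra8, lectin-like receptors, were below the floor on all arrays, with means between 5.25 and 42.8.

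Secreted cytokines were mostly not above the floor, with 8 of 30 (26.7%) above the floor, against 50.1% of all genes, and 15 below it on every array. Mif, macrophage migration inhibitory factor, stood at 18310, 20676, 24018 and 17457 in replicates 1 to 4 (mean 20115 ± 2937, SD, n = 4). Tgfb1, transforming growth factor beta 1, had signals of 8375, 12681, 7672 and 6274 in replicates 1 to 4, with a mean of 8750 ± 2762 (SD, n = 4). Il16, Osm and Lta averaged 2879 ± 715, 684 ± 75.5 and 413 ± 17.9 (SD, n = 4 each). Mif was highest in replicate 3 and Tgfb1 in replicate 2. The cytokines that mark T helper and cytotoxic cells lay near or below the floor. Ifng averaged 73.2 and was above the floor on 1 array, Tnf averaged 154 and was above on all 4, and Il2, Il4 and Ccl5 averaged 23.4, 25.5 and 26.1 and were below on all.

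**Figure D3:**
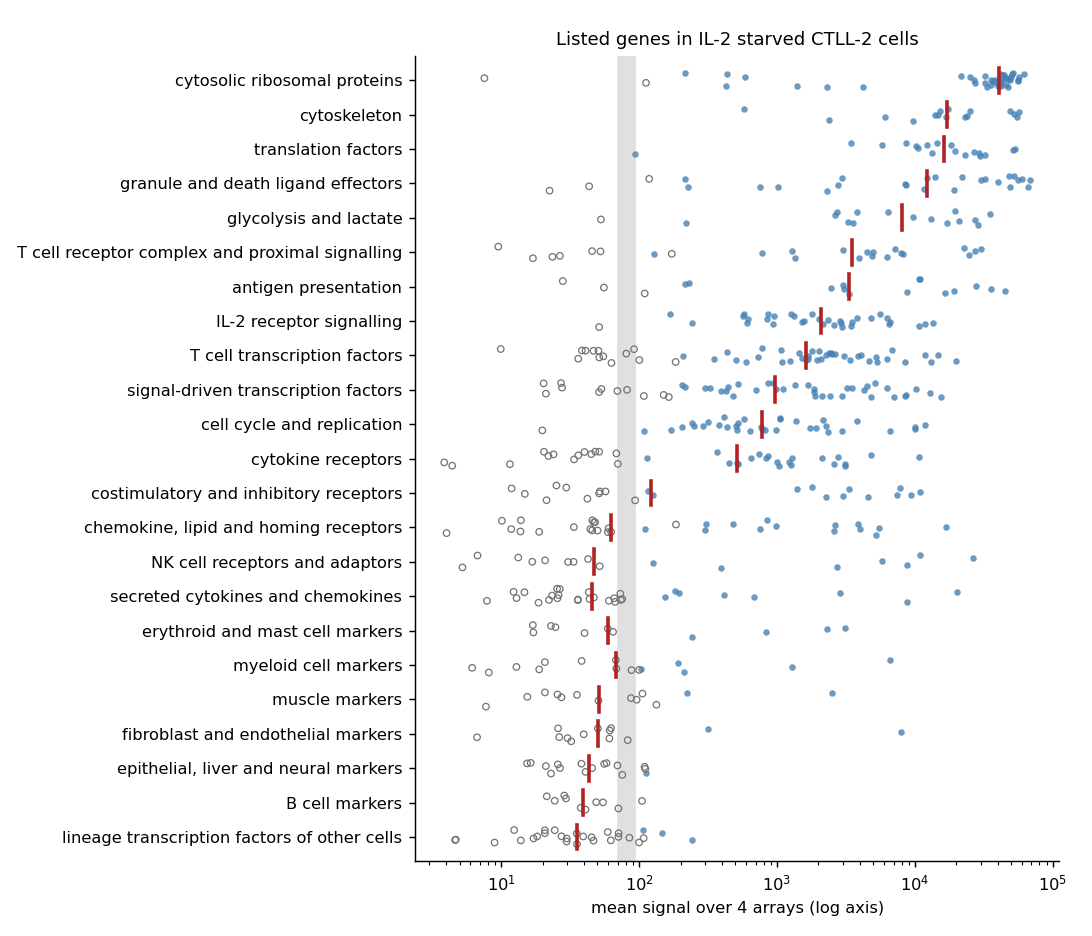
Mean signal over the 4 arrays of every measured gene of 23 lists, on a log axis. Filled points are genes above the floor on all 4 arrays, open points are the others, red bars are list medians and the grey band is the range of the floor. Ribosomal protein, cytoskeleton, translation and granule genes have medians of 12154 or more, and the lists of other cell types, NK receptors, secreted cytokines and homing receptors have medians below the band.

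T cell transcription factors were above the floor in 38 of 51 cases (74.5%), against 50.1% of all genes. The signals of Id2, an inhibitor of E proteins in effector T cells, were 17444, 19761, 18991 and 23439 in replicates 1 to 4 (mean 19909 ± 2543, SD, n = 4). Bhlhe40, a repressor induced in activated T cells, gave 14263, 15522, 14600 and 14561 in replicates 1 to 4, a mean of 14737 ± 545 (SD, n = 4). Bhlhe40 differed little between arrays, and Id2 was highest in replicate 4. For Hopx, a homeodomain protein of effector T cells, replicates 1 to 4 read 9065, 12204, 18939 and 12020 (mean 13057 ± 4177, SD, n = 4). Irf8, an interferon regulatory factor, stood at 12014, 12688, 13008 and 9332 in replicates 1 to 4 (mean 11761 ± 1671, SD, n = 4). Hopx was highest in replicate 3, and Irf8 was lowest in replicate 4. Factors that direct cytotoxic fate included Runx3 at 5284 ± 182, Eomes at 4665 ± 1005, Prdm1 at 2369 ± 268 and Tbx21 at 1635 ± 485 (SD, n = 4 each). Myb, a factor of progenitor cells, had signals of 5504, 5073, 2430 and 2431 in replicates 1 to 4, with a mean of 3859 ± 1659 (SD, n = 4). It was higher in replicates 1 and 2 than in 3 and 4. Foxp3, the factor of regulatory T cells, averaged 51.5, and Maf, Ikzf2 and Hlx averaged 38.6, 36.3 and 9.95, with all 4 genes below the floor on every array. Id3, an Id2 relative, was above the floor on 2 arrays, at a mean of 50.8, and Tox was above on 1.

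Factors that respond to signals were above the floor in 35 of 46 cases (76.1%), against 50.1% of all genes. The signals of Atf4, the factor of the amino acid and stress response, were 13222, 14124, 19503 and 15000 in replicates 1 to 4 (mean 15462 ± 2790, SD, n = 4). Xbp1, the factor of the unfolded protein response, gave 9590, 8873, 11690 and 10497 in replicates 1 to 4, a mean of 10163 ± 1216 (SD, n = 4). For Junb, an AP-1 subunit, replicates 1 to 4 read 11687, 13291, 4743 and 4590 (mean 8578 ± 4564, SD, n = 4). Atf4 was highest in replicate 3, and Junb was higher in replicates 1 and 2 than in 3 and 4. Jund averaged 12778 ± 3511, Stat3 8427 ± 2286, Hif1a 6233 ± 1250 and Irf1 4793 ± 538 (SD, n = 4 each). The immediate early genes were uneven. Ier2 averaged 4274 ± 933 and Egr1 988 ± 83.6, while Fos averaged 27.7, above the floor on 1 array, and Fosb 27.2, above on none. Myc, a factor that drives growth, stood at 279, 197, 135 and 253 in replicates 1 to 4 (mean 216 ± 63.7, SD, n = 4). It was above the floor on all 4 arrays. Stat4 and E2f2, at 20.4 and 21.1, were below it on all 4.

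Markers of other cell types were mostly at or under the floor, in lists to be read against the 50.1% of all genes above it. Of 10 B cell markers 0 were above on all arrays, with the highest mean 105 for Cd22. Of 28 lineage factors of other cells 3 were above, Gata1 at 241 ± 38.2, Pou5f1 at 148 ± 47.5 and Nkx2-5 at 106 ± 16.7 (SD, n = 4 each). Muscle markers numbered 2 of 13, and 4 of 13 without replicate 4. Ckm, muscle creatine kinase, had signals of 2793, 2457, 2117 and 2669 in replicates 1 to 4, with a mean of 2509 ± 296 (SD, n = 4). Mylpf, a myosin light chain, and Acta1, an actin, averaged 224 and 134, and the muscle lineage factor Myod1 averaged 27.4. The median of the muscle list was 50.9. Myeloid markers numbered 5 of 15. The signals of Itgax, the integrin CD11c, were 7245, 7474, 6057 and 5675 in replicates 1 to 4 (mean 6613 ± 881, SD, n = 4). Cd68, a lysosomal protein of macrophages, averaged 1288 ± 120 (SD, n = 4), and the other myeloid markers above the floor are not named here. The median of the myeloid list was 68.5, and Itgam, Lyz2 and S100a8 averaged 18.9, 38.4 and 12.9. Erythroid and mast cell markers numbered 4 of 11, namely Kit, Mcpt8, Gata1 and Cpa3, a mast cell carboxypeptidase at 827 ± 132 (SD, n = 4), while Fcer1a and Mcpt4 were below the floor on all arrays. Fibroblast and endothelial markers numbered 2 of 13. Pecam1, the adhesion molecule CD31, gave 9207, 9115, 4806 and 8472 in replicates 1 to 4, a mean of 7900 ± 2088 (SD, n = 4). The other was Kdr, and Col1a2, Col3a1 and Vwf averaged 82.8, 50.3 and 30.4. Of 16 epithelial, liver and neural markers 1 was above, Mbp at 113 ± 9.33 (SD, n = 4), and the count was 3 without replicate 2.

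Genes of translation, glycolysis and the cytoskeleton were bright, and those of division had a lower median signal, 777. The counts are to be read against the 50.1% of all genes above the floor. Cytosolic ribosomal protein genes were above the floor in 42 of 44 cases, with a median of 40444, and Rps16, at 7.58 on its single probe set, shows that a gene every cell uses can lie below the floor here. The remaining 35 of the 79 listed had no probe set with a single symbol and were not analysed here. Translation factors were above in 18 of 18 cases and genes of the cytoskeleton in 16 of 16. Of 16 genes of glycolysis and lactate 15 were above. For Aldoa, aldolase, replicates 1 to 4 read 31049, 48633, 33143 and 26920 (mean 34936 ± 9490, SD, n = 4). Ldha, lactate dehydrogenase A, stood at 25426, 31927, 29452 and 27980 in replicates 1 to 4 (mean 28696 ± 2721, SD, n = 4). Slc2a1, the glucose transporter GLUT1, had signals of 14309, 15075, 11273 and 12085 in replicates 1 to 4, with a mean of 13186 ± 1798 (SD, n = 4). Aldoa was highest in replicate 2, while Ldha differed by less between arrays, and Slc2a1 was lower in replicates 3 and 4. Antigen presentation genes were above in 14 of 17 cases, led by B2m at 45331 ± 12572 and H2-K1 at 35896 ± 6751, a class I heavy chain (SD, n = 4 each), while class II H2-Ab1 averaged 28.0 and was above on 1 array. Cell cycle genes were above the floor in 33 of 34 cases (97.1%), against 50.1% of all genes. The signals of Cdkn1a, the inhibitor p21, were 9088, 10356, 12483 and 7870 in replicates 1 to 4 (mean 9949 ± 1971, SD, n = 4). Pcna, the replication clamp, gave 9540, 8363, 11070 and 11030 in replicates 1 to 4, a mean of 10001 ± 1304 (SD, n = 4). For Cdkn1b, the inhibitor p27, replicates 1 to 4 read 3256, 2824, 1164 and 1775 (mean 2255 ± 957, SD, n = 4). It was higher in replicates 1 and 2 than in 3 and 4. Mki67, a marker of dividing cells, averaged 772 ± 176 and Ccna2, cyclin A2, 981 ± 181 (SD, n = 4 each). Tyms, thymidylate synthase, averaged 19.9 on the brightest of its 4 probe sets and was below the floor on every array.

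The 35 genes of the 100 highest that no list held covered several kinds of protein. Galectin genes Lgals1 and Lgals3 averaged 62300 ± 21121 and 34914 ± 6833, the annexin Anxa2 35488 ± 4569, and the calcium-binding S100a6 34608 ± 6370 (SD, n = 4 each). Ifitm1, an interferon-induced membrane protein, stood at 33257, 53950, 38973 and 30267 in replicates 1 to 4 (mean 39112 ± 10531, SD, n = 4). Ero1a, an oxidase that forms disulphide bonds in the endoplasmic reticulum, had signals of 25804, 35821, 38097 and 29972 in replicates 1 to 4, with a mean of 32423 ± 5585 (SD, n = 4). Ifitm1 was highest in replicate 2 and Ero1a lowest in replicate 1. The signals of Mt1, the metal-binding protein metallothionein 1, were 22699, 37388, 38539 and 28454 in replicates 1 to 4 (mean 31770 ± 7542, SD, n = 4). Csn1s1, a milk casein, gave 33648, 48837, 28434 and 21706 in replicates 1 to 4, a mean of 33156 ± 11540 (SD, n = 4). Mt1 was lowest in replicate 1, and Csn1s1 was higher in replicates 1 and 2 than in 3 and 4. The neighbouring casein genes, named after their values were seen, were unequal, with Csn2 at 16255 ± 2030, Csn3 at 11111 ± 1015, Csn1s2b at 57.6 ± 25.9 and Csn1s2a at 34.3 ± 38.2 (SD, n = 4 each). Csn2 and Csn3 were above the floor on all arrays, Csn1s2b on 1 and Csn1s2a on none.

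Promoter composition varied among the bright genes. Granule genes and those of the T cell receptor list had few CG pairs, and ribosomal protein genes had many. The CpG ratio, the number of CG pairs over the number expected from the C and G content, was taken over 300 bases (250 before the start site and 50 after it) from RefSeq on GRCm38.p6 and averaged over a gene's start sites. Granule and death ligand genes had a median of 0.26 (25 of 27 genes matched), and 18 (72.0%) were under 0.4. In genes above the floor the median was 0.78 (82.2% matched), with 10.2% under 0.4, and in all 27025 genes of the promoter table it was 0.39. Among the 100 highest genes, of which 85 matched, the median was 0.76 and 24.7% were under 0.4. Ribosomal protein genes had a median of 0.93 with 0 under 0.4, cell cycle genes 0.86, and genes of the cytoskeleton 0.70. Genes of the T cell receptor list above the floor had a median of 0.31 (14 of 17 matched). The list of NK cell receptors and adaptors, with 7 of 16 genes above the floor, had 0.23. Low medians were not particular to lymphocyte lists, with 0.24 for muscle markers and 0.18 for erythroid and mast cell markers, and T cell transcription factors above the floor had 0.67 and cytokine receptors 0.53. None of these differences was tested. Across 10 bins of signal among genes above the floor the median lay between 0.75 and 0.81 in the 9 bins with enough genes matched, and the lowest bin, with 79.6% matched, is void. So are the values for all genes measured (79.4% matched) and for genes below the floor (76.0%).

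**Figure D4:**
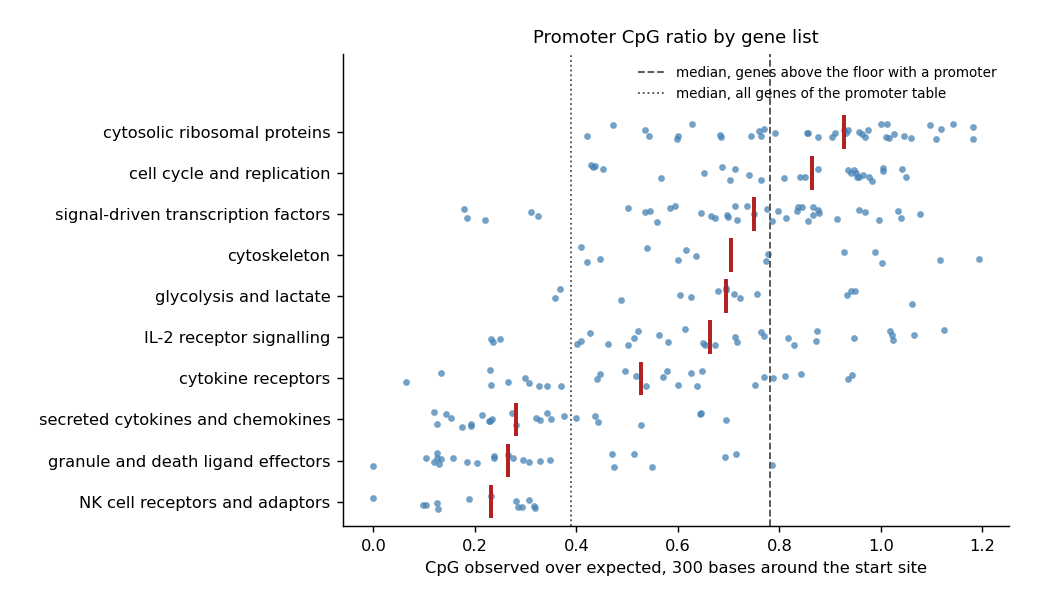
CpG observed over expected in 300 bases around the start site for each matched gene of 10 lists, with the list median as a red bar. The dashed line is the median of genes above the floor, 0.78, and the dotted line that of all genes of the promoter table, 0.39. Granule, NK receptor and cytokine genes have medians left of both lines and ribosomal protein genes right of them.

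Motifs were counted by their letters on both strands in the same 300 bases. A gene counted where the bases around any of its start sites held the motif, so genes with several start sites had more chances. TTCNNNGAA, the form of site that STAT factors bind, was in 10 of 28 matched cytokine receptor genes (35.7%), against 9.55% of all genes in the table. The 10 were Tnfrsf1b, Ifnar1, Il12rb2, Il1r2 and Tnfrsf1a, above the floor on all arrays, and Fas, Il7r, Csf2rb2, Ifnar2 and Il18r1, which were not. In IL-2 receptor signalling genes the motif was in 5 of 30 (16.7%), and in genes above the floor in 8.16%. Cytokine receptors had the highest share of the 14 lists with enough genes matched, so their value is the extreme of many small lists. Granule genes and secreted cytokines had 4 of 25 each, the NK list 2 of 13 and ribosomal protein genes 3 of 39. Matched B cell, muscle, and erythroid and mast cell markers had 0. None of these differences was tested, nor was any link to STAT factors. TATAAA was in 2 of 25 granule genes, against 7.96% of genes above the floor and 15.7% of all genes of the table. A match is a run of letters in this window and not a measured site.

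The 4 arrays correlated between 0.948 and 0.964 over genes, which are not independent replicates. The correlation was 0.960 for replicates 1 and 2 and 0.962 for 3 and 4. Across these pairs it was 0.960 for 1 and 3, 0.964 for 1 and 4, 0.948 for 2 and 3 and 0.951 for 2 and 4. Over all genes the correlations thus did not set replicates 1 and 2 apart from 3 and 4. The median SD of log2(signal + 16) over the 4 arrays was 0.25 among genes above the floor, and in 4 bins of equal size by signal it was 0.30, 0.26, 0.23 and 0.21 in order of rising signal. An SD over 0.5 was found for 760 genes (8.34%) and over 1 for 26. The largest SDs, named by rank, were those of St3gal1, Golt1b, Cap1, Tmem45a, Hnrnpl, Samd9l, Nts, Dnah8, Sp3, Uroc1, Sh2d1a and Fmnl1, between 1.12 and 1.50. For St3gal1, a sialyltransferase, replicates 1 to 4 read 730, 606, 82.0 and 120 (mean 385 ± 332, SD, n = 4). Samd9l, an interferon-induced gene, stood at 1418, 1285, 5702 and 5521 in replicates 1 to 4 (mean 3482 ± 2461, SD, n = 4). Sh2d1a, the adaptor SAP of lymphocyte receptors, had signals of 1926, 1687, 339 and 1246 in replicates 1 to 4, with a mean of 1299 ± 700 (SD, n = 4). St3gal1 and Sh2d1a were higher in replicates 1 and 2, and Samd9l in 3 and 4. The signals of Nts, the peptide neurotensin, were 1241, 1104, 4254 and 5392 in replicates 1 to 4 (mean 2998 ± 2159, SD, n = 4). Both of replicates 1 and 2 were above both of 3 and 4 for 10 of the 12, and both were below for Samd9l and Nts. Replicate 3 was the lowest array for 8 of the 12. The second probe set of Cap1 varied likewise, at 1264, 997, 180 and 430, whereas that of Golt1b did not, at 504, 420, 469 and 470.

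The same split of the arrays was present in transcripts added to the RNA as controls. The log2 ratio of 3′ to 5′ signal was 2.68, 2.43, 0.74 and 0.69 for dap in replicates 1 to 4, and 3.04, 3.02, 0.77 and 0.52 for thr. It was higher in replicates 1 and 2 for phe and lys as well. The cells' own Actb and Gapdh did not share the split, with log2 ratios between 0.25 and 0.33 for Actb and between −0.31 and −0.12 for Gapdh. Replicates 1, 2 and 4 were scanned on the same day and replicate 3 on another, per the file headers, while replicates 1 and 2 also shared a start of hybridisation. The part of these in the differences between arrays was not tested, and it touches each gene given above as higher in replicates 1 and 2 or in 3 and 4.

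**Figure D5:**
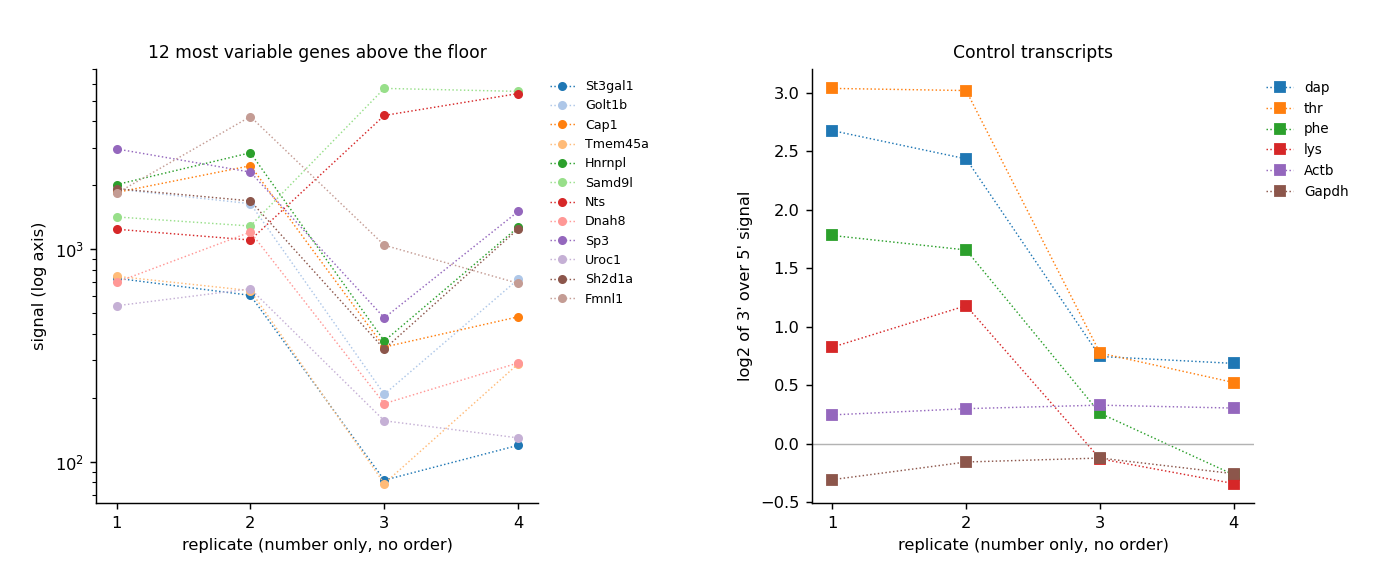
Left, signal on each array, on a log axis, of the 12 genes with the largest SD among genes above the floor. Right, log2 of the 3′ over the 5′ signal of 4 added control transcripts and of Actb and Gapdh. In 10 of the 12 genes and in the 4 added controls replicates 1 and 2 lie above 3 and 4, and the ratios of Actb and Gapdh stay within 0.25 to 0.33 and −0.31 to −0.12.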

How the data were processed

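RNA of the 4 samples was measured on Affymetrix arrays, and the labels place each sample in its group. Values are the authors' deposited signals, a linear intensity for each probe set from GCOS 1.3 (per the submitters' processing notes), scaled to a trimmed mean of 500 (2% left out at each end), as the values show. How background was corrected and probes summarised is not given in the sources used here. Scan days were numbered per the file headers.

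No further normalization was applied. Of 45101 probe sets, 64 controls were left out. Of the rest, 34945 had 1 symbol, 932 several and 9160 none in the platform's probe table, and symbols were updated through gene identifiers against RefSeq. Spread was taken as the SD of log2(signal + 16), which understates the spread of dim genes. No comparison was tested, since 1 group was described, and the number of arrays limits the precision. Scripts used Python 3.11.15 with pandas 2.3.3 and were tested on simulated data.

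Named were the 25 highest genes, the next 20 outside ribosomal proteins, members of 24 lists, the 12 most variable genes, 15 genes by surface-type names and sex-linked and control genes, leaving out clone and pseudogene names. The members and lists were chosen with earlier results of these data known. Alternatives covered the floor, scaling, probe set choice, pseudocount and each replicate left out.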

Additional observations from a re-analysis of the deposited data

Results flagged for a closer look

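On log2(signal + 16), 1 of the 4 arrays stood apart from the rest for 10 of the 257 genes named in the report, by a gap to its nearest neighbour above Dixon's critical share of the range for 4 values. Chance alone flags about 1 in 20 genes. Replicate 3 stood apart for 4 of them. It was lowest for Pecam1, at 4806 against 8472 to 9207 on the others, for Stat5b, at 1590 against 3349 to 3484, and for Prdm1, at 1971 against 2449 to 2542. It was highest for Jak3, at 3003 against 2047 to 2183. Replicate 4 was highest for Ccnd2, at 13126 against 11267 to 11430, and for S1pr1, at 85.9 against 54.4 to 56.5. Replicate 1 was highest for Bbc3, at 1260 against 804 to 840, and for Rps16, at 23.8 against 1.3 to 3.1. Replicate 2 was highest for Serpinb9, at 363 against 174 to 187, and for Cd6, at 48.9 against 5.50 to 7.70. S1pr1, Rps16 and Cd6 lay near or below the floor. Replicate 3 was the array scanned on another day, and the part of this was not tested.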

How the results depend on the processing

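The count of genes above the floor, 9112, lay between 8778 and 10096 under the 6 alternative floors, scalings and probe set choices and between 9250 and 9367 with each replicate left out. Under these alternatives 233 counts of list members stayed within 1.5 times the value given and 7 did not. With the floor at the 40th percentile of all probe sets the counts were 8 for lineage factors of other cells, 3 for B cell markers, 5 for muscle markers and 4 for epithelial, liver and neural markers. With the mean over probe sets the last was 0. Leaving out a replicate gave 2 to 4 muscle markers and 1 to 3 epithelial, liver and neural markers, the higher counts without replicates 4 and 2. The median SD of log2 was between 0.22 and 0.26 under all alternatives run. The median CpG ratio of genes above the floor was 0.785 with the mean over probe sets and 0.781 as given. Of the recomputed signals of the brightest genes and T cell markers 345 moved by less than their SD over arrays and 25 by more, all through the choice of probe set. With the mean over probe sets 19 moved by more and 28 by less. Without probe sets of shared-transcript suffixes 6 moved by more and 35 by less. Genes with only such probe sets, Rpl38, Actg1 and Gzme among them, had no value there. Among the 6 that moved without those probe sets, Rpl41, Tmsb10, Rps24 and Mt1 averaged 90.8, 58.5, 110 and 160. After quantile normalization, an alternative chosen after the data were seen, 10 of the 12 most variable genes were still among the 12. No paired analysis was possible because the values describe 1 group and come from no test.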

Other observations

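Xist, the RNA that silences an X chromosome, gave 74.4, 125, 114 and 59.1 in replicates 1 to 4 and was above the floor on 3 arrays. The Y-linked genes Eif2s3y, Kdm5d and Uty averaged 9.60, 28.7 and 50.8. The added cre control gave its highest signal on replicate 2, at 76131, against 23684 to 41504 on the other arrays. Of the 100 brightest probe sets that are not controls, 42 carry several symbols and 9 none in the platform's table, so the list of brightest genes is that of the 49 with a single symbol and those following them. The hybridisation controls bioB, bioC, bioD and cre stood in that order of rising signal on every array, and the control trpn, at 2.70 to 64.3, was below the floor.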
